A study of Mus musculus with 6 samples.

Results

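Inside the bodies of protein-coding genes, away from the annotated gene ends, 1001 regions carried nucleosome-sized enrichment in every wild-type sperm library and in neither library with a substitution in protamine 1. The regions were chosen by the authors' peak calls and by position. They are 1001 of 44743 merged regions in all, and of 6161 regions with the same calls anywhere in the genome. To find them, the peaks of all 6 libraries were merged wherever they overlapped or touched. A merged region was kept if it overlapped a peak in all 4 wild-type lists and in neither mutant list, if its midpoint lay between the ends of a protein-coding gene, and if it overlapped no window of 1 kb either side of an annotated gene start or end. These calls chose the regions, so the absence of K49A peaks there is part of the definition and is not a result.

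MNase-seq was used to compare where nucleosomes are found in the 2 kinds of sperm. The K49A group had 2 libraries from mice with the K49A allele of protamine 1, in which alanine takes the place of a lysine, and the sample titles call these libraries MT. The WT group had 4 libraries from C57BL6 wild-type mice. The labels do not say whether one or both copies of the gene were mutant, nor how many animals gave the sperm for each library. Per the labels, both groups were sperm from the epididymis and vas deferens, treated alike. The cells were exposed to DNase I, permeabilised with Triton and phosphatidylcholine, decondensed with DTT and digested with 5 and then 15 units of micrococcal nuclease (MNase), and the mononucleosome band was cut from a gel. MNase cuts between nucleosomes, so the recovered fragments mark DNA held by a nucleosome or by another particle of that size.

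During the last steps of sperm formation most histones are replaced by protamines, small basic proteins that pack the DNA tightly. Some nucleosomes remain, and in mouse sperm these are known to lie mainly at promoters rich in CpG dinucleotides that are free of DNA methylation. Many genes have more than 1 promoter, so a CpG-rich transcription start can lie well inside the annotated span of its own gene, downstream of the outermost start or between it and the last exon. Long noncoding RNAs (lncRNAs) can also start inside a coding gene, often on the opposite strand.

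Several of the strongest regions lay over such a start, and the sequences around some of these starts are shown for their CpG content, which could be measured at listed starts only. The windows below span 250 bases before to 50 bases after a transcription start listed in RefSeq (GRCm38.p6, the assembly of mm10), read 5′ to 3′ on the strand of the gene, here the minus strand in every case. Capitals mark each CpG dinucleotide (the letters CG, which read the same on both strands). Furin (chr7:80402763-80403062) and Cacna1d (chr14:30353437-30353736) are shown as the starts in 2 of the 3 strongest regions. For Kcnip1 and Rap1gap2, the start inside a WT-only region (chr11:33843637-33843936 and chr11:74522752-74523051) is shown above another start of the same gene that had no peak in any of the 6 libraries (chr11:33680633-33680932 and chr11:74558978-74559277). Gm15609 (chr15:89523701-89524000) is an lncRNA that starts inside Shank3 on its opposite strand, in the strongest region that held an lncRNA start and no coding start, and was chosen after its values were seen.
Furin, start in a WT-only region: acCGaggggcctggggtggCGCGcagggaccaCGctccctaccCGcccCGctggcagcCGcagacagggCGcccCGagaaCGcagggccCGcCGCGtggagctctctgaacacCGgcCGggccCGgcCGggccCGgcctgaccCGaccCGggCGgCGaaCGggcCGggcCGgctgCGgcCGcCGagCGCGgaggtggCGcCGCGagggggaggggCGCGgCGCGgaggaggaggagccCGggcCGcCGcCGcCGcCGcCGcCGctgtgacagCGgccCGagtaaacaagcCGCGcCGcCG
Cacna1d, start in a WT-only region: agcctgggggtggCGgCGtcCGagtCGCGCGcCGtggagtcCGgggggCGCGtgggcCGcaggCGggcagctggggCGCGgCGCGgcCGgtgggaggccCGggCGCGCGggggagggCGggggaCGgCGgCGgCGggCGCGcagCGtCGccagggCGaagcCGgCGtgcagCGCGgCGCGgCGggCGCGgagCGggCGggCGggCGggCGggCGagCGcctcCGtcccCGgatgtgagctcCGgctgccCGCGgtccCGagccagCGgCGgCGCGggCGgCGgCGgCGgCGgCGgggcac
Kcnip1, start in a WT-only region: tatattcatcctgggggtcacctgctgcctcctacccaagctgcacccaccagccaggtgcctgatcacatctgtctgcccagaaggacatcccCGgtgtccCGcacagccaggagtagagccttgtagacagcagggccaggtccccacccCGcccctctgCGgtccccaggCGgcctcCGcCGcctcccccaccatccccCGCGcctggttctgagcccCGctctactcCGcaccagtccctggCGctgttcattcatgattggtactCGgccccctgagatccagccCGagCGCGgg
Kcnip1, start with no peak: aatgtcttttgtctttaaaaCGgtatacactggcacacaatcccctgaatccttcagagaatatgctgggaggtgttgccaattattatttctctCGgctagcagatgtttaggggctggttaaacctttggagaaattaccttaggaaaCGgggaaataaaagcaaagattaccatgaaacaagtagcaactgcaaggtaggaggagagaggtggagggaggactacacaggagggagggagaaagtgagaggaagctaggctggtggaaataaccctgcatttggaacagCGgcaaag
Rap1gap2, start in a WT-only region: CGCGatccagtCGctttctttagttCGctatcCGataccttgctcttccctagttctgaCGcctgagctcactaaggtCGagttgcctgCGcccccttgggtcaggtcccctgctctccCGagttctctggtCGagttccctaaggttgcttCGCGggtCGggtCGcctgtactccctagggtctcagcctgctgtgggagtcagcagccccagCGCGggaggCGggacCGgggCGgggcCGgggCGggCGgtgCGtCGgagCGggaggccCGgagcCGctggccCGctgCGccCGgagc
Rap1gap2, start with no peak: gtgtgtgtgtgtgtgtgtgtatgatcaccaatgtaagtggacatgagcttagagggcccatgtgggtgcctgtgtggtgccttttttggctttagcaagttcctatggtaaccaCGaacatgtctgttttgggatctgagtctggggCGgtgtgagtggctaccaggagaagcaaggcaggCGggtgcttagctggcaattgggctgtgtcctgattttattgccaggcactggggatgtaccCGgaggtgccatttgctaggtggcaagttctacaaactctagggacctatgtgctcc
Gm15609, lncRNA start in a WT-only region: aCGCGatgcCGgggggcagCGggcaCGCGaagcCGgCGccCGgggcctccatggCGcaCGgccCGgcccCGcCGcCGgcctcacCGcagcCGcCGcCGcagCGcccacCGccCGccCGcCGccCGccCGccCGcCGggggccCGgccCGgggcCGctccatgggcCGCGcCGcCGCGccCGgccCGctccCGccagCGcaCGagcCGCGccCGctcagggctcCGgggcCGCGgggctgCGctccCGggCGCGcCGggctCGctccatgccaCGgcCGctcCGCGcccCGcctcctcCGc

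The window of Furin held 51 CpG and that of Cacna1d 63. The called start of Kcnip1 held 16 CpG, against 4 at its start with no peak. The called start of Rap1gap2 held 30, again against 4 at the start with no peak. The lncRNA start in Shank3 held 59, whereas that of Gm38632 in Hivep3, in the next strongest region of this kind, held 4. Over all 32816 starts in the table, 43.4% had at least 10 CpG in the window, so a CpG-rich start is common in itself.

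The lists behind these regions were of very unequal length. The K49A lists held 700 and 1017 peaks and the WT lists 11313, 20458, 22237 and 27903, so WT 1 was the shortest WT list. The lowest −log10 p in the K49A lists was 4.73 and 4.55, and in the WT lists it was between 3.32 and 3.75. A WT peak could thus be listed at a strength that would not have entered a K49A list. Of the 1001 regions, 381 (38.1%) reached 4.73 with their best peak in all 4 WT lists. The number of reads behind each list is unknown. A list holds no absolute level either, so fewer sperm keeping a nucleosome at a region and a lower occupancy in each sperm cannot be told apart. The labelled cell type could not be checked against expressed markers in these data.

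Inside gene bodies there were 14228 merged regions, and the 1001 made up 7.04% of them. Most of the rest, 10004 regions, were called in a single WT library and in no K49A library, while 1113 were called in 3 WT libraries and in no K49A library. Another 44 had a peak in all 4 WT lists plus 1 K49A list, and 66 had one in all 6. Of the 6161 regions with WT-only calls (13.8% of all merged regions), 4434 lay at gene ends and 726 between genes. The 1001 regions were between 220 and 3611 bp wide after merging, with a median of 1260 bp. The count depended on the lists. Of the libraries left out singly, WT 1 moved it furthest, to 1702 regions. With only the peaks at a −log10 p of 5 or more the rule found 269, and with each list reduced to its 700 strongest peaks it found 4.

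The share of each whole list that lay inside gene bodies was compared between genotypes as well. It was 29.4 and 31.5% in K49A (30.4 ± 1.44%, SD, n = 2) and 24.0, 26.2, 26.3 and 30.8% in WT (26.8 ± 2.85%, SD, n = 4). In these whole lists WT 4 lay between the K49A libraries, so the groups overlapped. The difference of 3.63 percentage points was within their spread (exact permutation test over libraries, two-sided p = 0.267). With each list cut to its 700 strongest peaks the groups did not overlap. The shares were then 29.4 and 28.4% in K49A and 18.4 to 21.4% in WT, a difference of 9.43 points (exact permutation p = 0.13). Limits of 5 and 10 on −log10 p also separated the groups, by 7.74 and 3.95 points. With gene end windows of 2 kb they still overlapped. The WT lists include the 1001 regions. With 2 and 4 libraries the smallest p this test can give is 0.13, and a test within the 4 WT libraries cannot go below 0.13, so neither could reach 0.05.

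A listed coding start was found inside 387 of the 799 WT-only regions whose host genes have an entry in the start table, or 48.4% (95% exact binomial interval 44.9 to 52.0%). Over all merged regions in gene bodies with such hosts, the share was 8.83%. All 387 held a start of the gene in which the region lay. This was fixed by the choice of starts and regions, which lie inside a gene and outside the windows. An lncRNA start was found in 62 regions (7.76%), of which 35 also held a coding start. In regions called in 3, 2 and 1 WT libraries and no K49A library the share was 6.54, 3.53 and 0.770%. Where an lncRNA started in a WT-only region, it ran antisense to the host gene in 59 of 62 regions and in the sense direction in 3. The strand of all lncRNA starts inside coding genes was not counted, so this may hold for such starts in general. Some listed start of either kind was present in 414 of the 799 WT-only regions (51.8%), and 385 held none. With only the peaks at a −log10 p of 5 or more, the share with a coding start was 63.1%, and with 1 WT library left out it was between 39.9 and 47.7%.

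The share with a coding start was higher the more WT libraries had called a region. It was 2.31% of the 7796 regions called in 1 WT library and no K49A library, 13.1% of 1333 called in 2, and 26.4% of 871 called in 3. Regions shared with K49A were different in this respect. A coding start lay in 5 of 33 regions with a peak in all 4 WT lists and 1 K49A list (15.2%, exact interval 5.11 to 31.9%), in 1 of 47 called in all 6 (2.13%, 0.0539 to 11.3%), and in 0 of 139 called in 1 K49A library and no WT library, which allows a share of up to 2.16%. These intervals cover counting error only, and regions of the same libraries are not replicates.

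**Figure D1:**
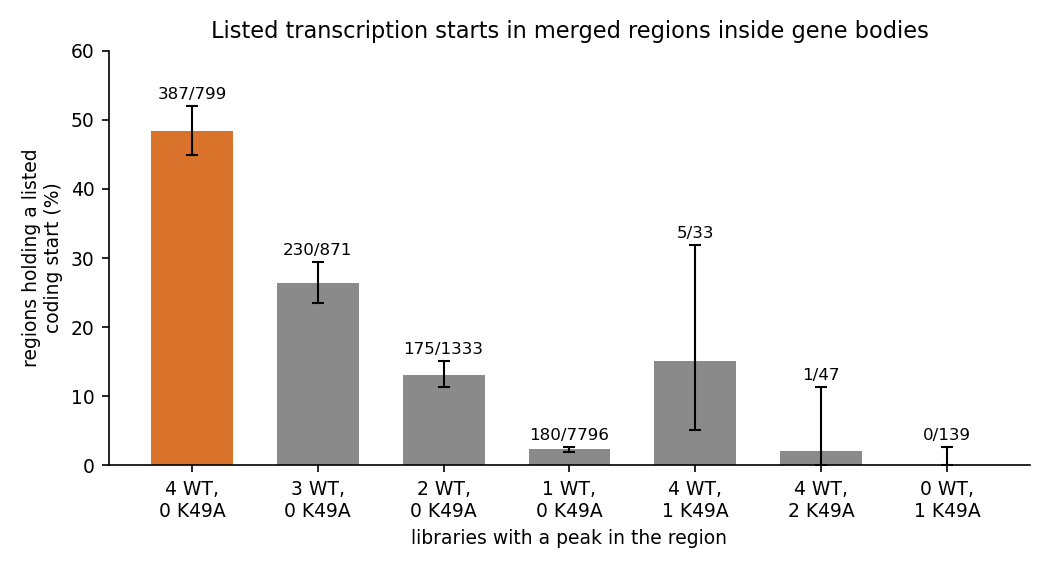
Percent of merged gene-body regions that hold a listed coding transcription start (y axis), by the number of libraries with a peak in the region (x axis). Bars are shares with 95% exact binomial intervals and the counts above them; the WT-only regions (orange, 387 of 799) stand above the regions called in fewer WT libraries and above the 47 regions called in all 6 libraries.

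Merged regions called in more libraries are also wider, which by itself gives more room for a start. The median width was 1257 bp in the WT-only regions with such hosts and 278 bp in regions called in 1 WT library. Among regions of 500 to 1000 bp, 101 of 213 WT-only regions held a coding start (47.4%), compared with 114 of 430 called in 3 WT libraries (26.5%) and 59 of 1134 called in 1 WT library (5.20%). At 1000 to 1500 bp the counts were 172 of 338 (50.9%), 71 of 269 (26.4%) and 0 of 55 in the same order. From 1500 bp they were 113 of 240 (47.1%), 32 of 103 (31.1%) and 0 of 6, so the order of the classes was the same in each of these widths. Below 500 bp the WT-only regions were below those called in 3 WT libraries, with 1 of 8 (12.5%) against 13 of 69 (18.8%), and 121 of 6601 called in 1 WT library held a start (1.83%).

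Counted per library rather than per region, peaks over internal coding starts were rare in K49A. Of the gene-body peaks in genes with an entry, 2 of 156 (1.28%) and 3 of 239 (1.26%) held a coding start in K49A 1 and 2. In WT 1 to 4 the share was 17.3, 13.4, 13.4 and 11.3%. The groups did not overlap, with 1.27 ± 0.0190% in K49A (SD, n = 2) and 13.9 ± 2.48% in WT (SD, n = 4), a difference of -12.6 percentage points (two-sided exact permutation p = 0.13, the smallest it can give). Part of this difference was built into the choice of regions. With the 1001 regions left out, the share was the same 1.28 and 1.26% in K49A and 8.57, 7.84, 8.05 and 7.26% in WT, again without overlap, and the difference was -6.66 percentage points (exact permutation test, two-sided p = 0.13). With each list cut to its 700 strongest peaks and no region left out, the shares were 1.28 and 1.39% in K49A. In WT 1 to 4 they were then 34.0, 21.6, 26.0 and 23.5%. List peaks were narrower in K49A (medians 301 and 294 bp) than in WT (366 to 557 bp), and the part of width in these shares was not tested.

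The same starts can be followed as sites. Starts of a chromosome within 500 bp of the next were joined into 1 site, which gave 3549 coding start sites inside gene bodies and outside the 1 kb windows, and 398 of them (11.2%) were in a WT-only region. A peak covered 3 sites in K49A 1 and 3 in K49A 2, or 0.0845% in each. In WT 1 to 4 peaks covered 423, 678, 745 and 884 sites, or 11.9, 19, 21.0 and 24.9%. No library covered most of these sites, and 2336 of the 3549 had a peak in none of the 6 lists. At the 398 sites in WT-only regions the absence of K49A peaks was part of the choice of regions. The K49A lists were also far shorter, at 700 and 1017 peaks against 11313 to 27903 in WT. Coverage of sites at equal list length, or without the 398, was not computed. Coding start sites in the 1 kb windows, joined in the same way, numbered 15394. Peaks covered 9 of them in K49A 1 and 7 in K49A 2 (0.0585 and 0.0455%). In WT 1 to 4 peaks covered 15.9, 26.5, 29.9 and 34.1% of them. The contrast between the groups was thus not particular to starts inside gene bodies.

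Starts in WT-only regions were richer in CpG than those without a peak. The 459 coding starts in WT-only regions had a median of 29 CpG in the 300 bases (quartiles 21 and 37), a GC content of 68.7% and a ratio of observed to expected CpG of 0.841. The 2538 internal coding starts with no peak in any library had a median of 5 CpG (quartiles 3 and 9), a GC content of 50.7% and a ratio of 0.272. At least 10 CpG were present at 95.4% of the starts in WT-only regions and at 22.3% of those with no peak. Starts in the WT-only regions at gene ends were alike in composition, with a median of 28 CpG, a GC content of 67.3% and 95.4% with at least 10 CpG (3655 starts). The 83 lncRNA starts in the WT-only gene-body regions had a median of 24 CpG, and 79.5% had at least 10.

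Within the WT libraries, the share of internal starts under a peak was higher in each richer class of CpG content, in each of the 4 libraries. Of 467 starts with at least 30 CpG, a peak covered 0 in K49A 1 and 0 in K49A 2, against 56.1, 57.2, 64.2 and 83.5% in WT 1 to 4. Of 1211 starts with fewer than 5 CpG, a peak covered 1 in each K49A library (0.0826%) and 0.661, 3.22, 2.97 and 1.90% in WT 1 to 4. The starts in a WT-only region made up 46.3% of the richest class and 0.413% of the poorest. At these starts the absence of K49A peaks, and in part the WT peaks, followed from the choice of regions. Shares with these starts left out, or at equal list length, were not computed. WT 1, the shortest WT list, covered fewer starts of 10 to 19 CpG (7.95%) than the other WT lists (22.8 to 27.6%), while at 30 or more it was close to WT 2.

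**Figure D2:**
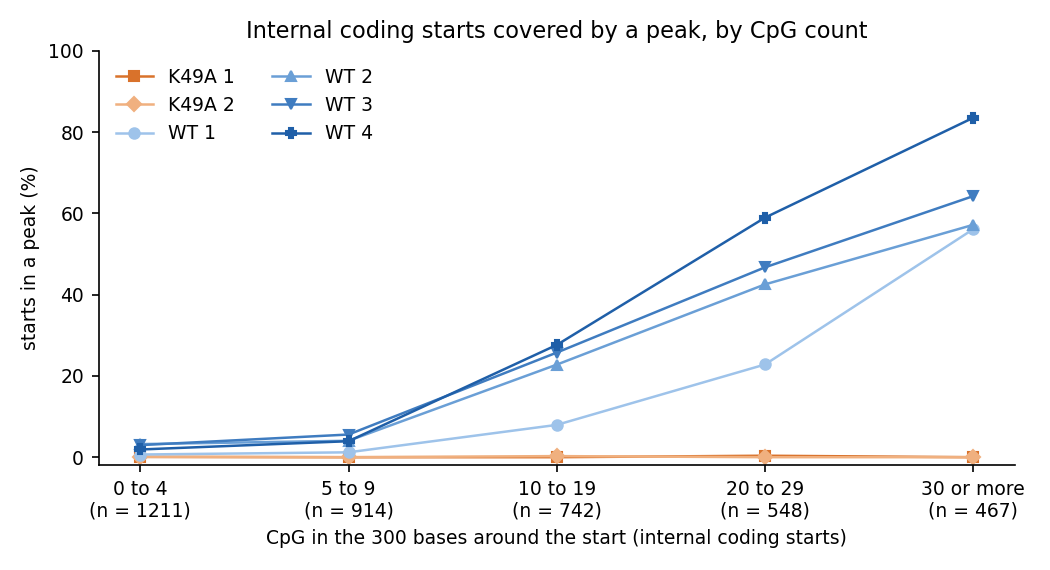
Percent of internal coding starts under a peak (y axis) by the number of CpG in the 300 bases around the start (x axis, with the number of starts), 1 line per library. Both K49A lines stay at or near 0 in all classes, and the WT lines lie between 0.661 and 3.22% at fewer than 5 CpG and between 56.1 and 83.5% at 30 or more. Starts in WT-only regions are included, and there the absence of K49A peaks is part of the choice of regions.

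The enrichment was centred a little downstream of the start. The centre of the best peak lay a median of 164, 226, 201 and 170 bp downstream in WT 1 to 4, and within 500 bp of the start in 87.1, 81.5, 87.6 and 89.3% of cases. The best peak covered the start base itself at 63.2, 74.3, 79.7 and 82.6% of the 459 starts.

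Most of these genes had no start listed at their annotated 5′ end. Of 378 genes with their own start in a WT-only region, 259 (68.5%) had no listed start within 1 kb of the annotated 5′ end of the gene, so that the annotated span reached further upstream than the starts in the table. In the other 119 the table listed a start at the 5′ end too. For 180 of the 378 genes the start in the region was the only one listed, so no second start was known there. For 198 genes several starts were listed. The start in the region lay a median of 6.59 kb from the annotated 5′ end. Counted over all genes with an internal start, 259 of 1640 genes with no listed start at the 5′ end had one in a WT-only region (15.8%), and 119 of 1290 genes with such a start (9.22%).

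In the 119 genes with both kinds of start, the internal start was chosen by its WT-only region, so its CpG content is a description. The richest internal start held more CpG than the outer one in 93 of these genes (78.2%), with medians of 30 CpG at the internal and 11 at the outer start. In the 1171 genes with both kinds of start but no internal start in a WT-only region it did so in 372 (31.8%), with medians of 6 at the internal and 15 at the outer start. Among the 119, taking the start inside the region, the values varied with the calls at the outer start. The outer start was called in no WT library in 49 genes, with a median of 30 CpG at the internal and 5 at the outer start. It was called in all 4 WT libraries in 26 genes, where both medians were 28. In the remaining 44 genes, called in 1 to 3 WT libraries, the medians were 30.5 CpG at the internal and 16.5 at the outer start. In Cacna1d, which encodes the pore-forming subunit of an L-type calcium channel, the internal start held 63 CpG and the outer one, 138 kb upstream and without a WT peak, held 4. In Hdac7, a class II histone deacetylase, the values were 35 and 6 CpG over a distance of 12.7 kb, and the outer start again had no WT peak. In Rap1gap2, a GTPase-activating protein for Rap1, the start with the most CpG in a WT-only region held 39 and lay 20.7 kb from the outer start, which held 31 and was called in all 4 WT libraries.

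Regions with a coding start were somewhat stronger than those without any listed start. The authors' fold of the best peak had medians of 3.25, 3.02, 3.07 and 3.15 in WT 1 to 4 in the 387 regions with a coding start. In the 385 regions without any start the medians were 3.09, 2.94, 2.94 and 2.86. The first group was higher in 4 of 4 libraries, by 0.167 ± 0.0873 (SD over libraries, n = 4; two-sided exact sign-flip permutation p = 0.13, the smallest it can give). Ranked within each library's own list by −log10 q, the median percentile was higher by 12.8 ± 7.85 points with a start (SD, n = 4, higher in 4 of 4; exact permutation p = 0.13). The quartiles of the groups overlapped in every library. In WT 4, for example, they ran from 2.82 to 3.49 with a start and from 2.65 to 3.14 without.

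Set against WT-only regions elsewhere, those in gene bodies were of ordinary strength. The median folds were 3.16, 2.97, 3.00 and 2.97 in WT 1 to 4 in gene bodies, and 3.08, 2.97, 3.01 and 2.85 between genes. The mean difference of 0.0458 ± 0.0631 (SD, n = 4) was within the spread between libraries (exact sign-flip permutation test, two-sided p = 0.375). At gene ends the medians were 3.28, 3.00, 3.07 and 3.12, so gene bodies were lower in 4 of 4 libraries, with a mean difference of -0.0928 ± 0.0543 (SD, n = 4; exact permutation p = 0.13). Widths of the best peak did not separate the classes. On the log2 scale they differed by 0.10 ± 0.18 from regions between genes (exact permutation p = 0.5) and by -0.08 ± 0.07 from those at gene ends (SD, n = 4; exact permutation p = 0.25). The 66 gene-body regions called in all 6 libraries had medians of 4.95 and 5.03 in K49A 1 and 2 and between 4.86 and 6.17 in the WT libraries, each relative to its own library's background.

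**Figure D3:**
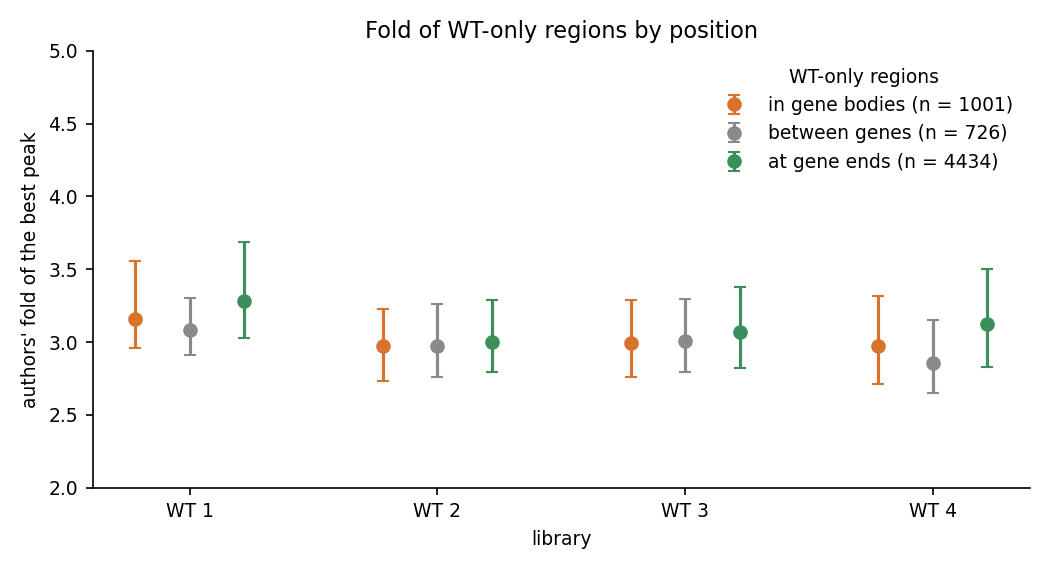
Authors' fold of the best peak (y axis, not from 0) in each WT library (x axis) for WT-only regions in gene bodies, between genes and at gene ends. Points are medians and bars the quartiles over regions; the classes overlap in every library, and the median in gene bodies lies below that at gene ends in 4 of 4.

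Folds of single regions repeated only in part between libraries. Across the 1001 regions the log2 folds of 2 WT libraries correlated with a Pearson r of between 0.39 and 0.61 and a Spearman coefficient of between 0.35 and 0.57, as a description over regions that share their libraries. The region's lowest rank fell in WT 1 for 387 regions and in WT 4 for 179, so the shortest list most often set the limit. Mean folds over the 4 libraries ran from 2.13 to 5.81 with a median of 3.07, and 19 regions had a mean above 4.

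The 10 strongest regions, by mean rank of their −log10 q within each WT list, lay in Furin, Maneal, Cacna1d, Sntg1, Arih1, Kcnip1, Tead4, Rap1gap2, Dusp16 and Phip. These calls chose them, so the values are a description. Furin encodes the proprotein convertase that cleaves many secreted precursors, and its region (chr7:80402019-80403056) had folds of 5.35, 4.92, 4.43 and 3.76 in WT 1 to 4. Maneal, which encodes an endomannosidase-like protein, had 6.76, 4.46, 5.02 and 4.49 at chr4:124861779-124862415. Cacna1d had 5.15, 3.99, 4.53 and 4.71 at chr14:30353259-30354107, deep in the gene at 125378 bp from the nearest end. All 3 were highest in WT 1, and the mean for Cacna1d was 4.60 ± 0.480 (SD, n = 4).

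Arih1 encodes a ubiquitin ligase of the Ariadne family, and its region (chr9:59485792-59487019) had folds of 3.91, 4.36, 4.46 and 4.93 in WT 1 to 4. Kcnip1, an auxiliary subunit of A-type potassium channels, had 4.63, 4.06, 3.95 and 3.79 at chr11:33842742-33844332. The Rap1gap2 region (chr11:74522087-74523468) had 4.34, 3.39, 3.44 and 3.49, with WT 1 apart from the others. Dusp16, a phosphatase of stress-activated MAP kinases, had a mean fold of 3.84 ± 0.433, and Phip, a bromodomain protein that binds insulin receptor substrates, 4.18 ± 0.706 (SD, n = 4 each). All of these held a coding start of their host, and the Dusp16 region also held the start of the lncRNA 1700055D16Rik.

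The other 2 of the 10 were narrow. In Tead4, a transcription factor of the Hippo pathway that acts in the first lineages of the embryo, the region spanned 220 bp (chr6:128285796-128286015) with folds of 4.66, 6.32, 8.37 and 3.90 in WT 1 to 4. Its peak was 220 bp wide in WT 1, 2 and 3 and 200 bp in WT 4, and its folds were the most uneven of the 10, at 5.81 ± 1.98 (SD, n = 4). In Sntg1, a syntrophin of the dystrophin complex, the region spanned 354 bp (chr1:8797986-8798339) with folds of 5.51, 5.23, 4.32 and 5.42, at 438247 bp from the nearest gene end. Neither Tead4 nor Sntg1 has an entry in the start table, so whether these regions hold a coding start is unknown.

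The widest regions were of lower fold. Hivep2, a zinc finger transcription factor, held the widest at 3611 bp (chr10:13964595-13968205), with folds of 2.94, 2.49, 2.43 and 2.66 in WT 1 to 4, and the region contained its own start. The others were in Zfp993, Unc45b, Nrip1, Asic2, Pax5, Cpeb2, Rreb1, Rgs20 and Eva1c, with widths of 2780 to 3185 bp. Pax5, which commits B cells, had 2.67, 2.36, 2.40 and 2.76 over 2878 bp. Nrip1, a corepressor of nuclear receptors, had a mean of 2.46 ± 0.0468 (SD, n = 4) over 2963 bp. A coding start lay in the regions of Hivep2, Rreb1 and Eva1c, and an lncRNA start in that of Cpeb2. Cpeb2 and Rgs20 have no entry in the start table, so a coding start could not be found in them. The Cpeb2 region is therefore not among the regions counted above with an lncRNA start.

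The 920 host genes were 4.78% of the 19258 protein-coding genes with gene body outside the windows. Of these, 842 hosted 1 region, 70 hosted 2 and 8 hosted 3. The 8 were Shank1, Nfatc2, Trim2, Rap1gap2, Zbtb7c, Zfp993, Zfhx3 and Asic2. Shank1, a scaffold of the postsynaptic density, was the shortest of them at 51179 bp. Its regions had mean folds of 3.14 ± 0.387, 3.36 ± 0.576 and 2.65 ± 0.285 (SD, n = 4 each). In Trim2, a ubiquitin ligase, 2 of the 3 regions held a coding start, and in Nfatc2, a calcium-responsive transcription factor, 1 of 3. Among genes with 2 regions, Nfil3 and Ldb1 had the most per Mb of gene body, and both Ldb1 regions held a start of this LIM-domain cofactor, with mean folds of 3.32 ± 0.600 and 3.28 ± 0.245 (SD, n = 4 each).

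Hosts were long genes, with a median length of 74.2 kb against 20.3 kb in other genes. The share of genes that hosted a region was 0.944% at 2 to 10 kb, 2.71% at 10 to 30 kb, 6.34% at 30 to 100 kb, 13.3% at 100 to 300 kb and 22.3% above 300 kb. Per Mb of gene body the order was the reverse, with 2.69, 1.72, 1.28, 0.944 and 0.489 regions in the same classes. The 5′ end of the host itself was called in all 4 WT libraries in 20.9% of 738 hosts and in 23.8% of 14561 other genes. Among the 378 hosts with their own start in the region it was 11.4%. The 5′ end was called in no WT library in 66.1% of these 378, in 53.3% of the 738 hosts and in 36.8% of the other genes. In 259 of the 378 no start was listed within 1 kb of the annotated 5′ end.

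Along the host gene the regions were concentrated near the 5′ end. Of 796 regions with 1 host of known strand, 537 (67.5%) lay nearer to the 5′ than to the 3′ end. In the 0 to 10% of gene length next to the 5′ end there were 2.84 regions per Mb of eligible gene body, and in the last 10% there were 0.636. Regions with a coding start had 1.99 per Mb next to the 5′ end and 0.0296 next to the 3′ end. Regions without one had 0.842 per Mb next to the 5′ end, between 0.383 and 0.605 in the 8 classes between, and 0.606 next to the 3′ end. Neither all listed internal starts nor all merged gene-body regions were placed along the genes for comparison.

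**Figure D4:**
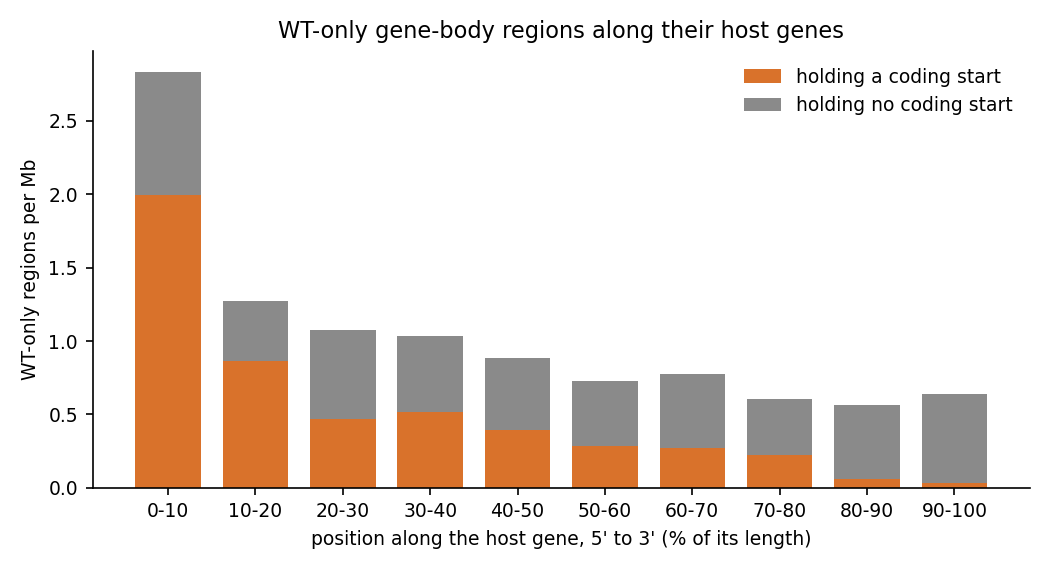
WT-only gene-body regions per Mb of eligible gene body (y axis) by position along the host gene from 5′ to 3′ (x axis, percent of gene length), for 796 regions. Stacked bars separate regions that hold a coding start (orange) from those that do not (grey); the orange part shrinks from 1.99 to 0.0296 per Mb, and the grey part is 0.842 in the bar next to the 5′ end and at most 0.606 in the others.

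Counted from the nearest annotated gene end of either kind, there were 2.18 regions per Mb at 1 to 2 kb, 2.99 at 2 to 5 kb, 1.29 at 5 to 10 kb and 0.497 beyond 50 kb. The density at 1 to 5 kb was 5.56 times that beyond 50 kb. Whole lists had ratios of 3.01 and 1.88 in K49A 1 and 2 (2.44 ± 0.801, SD, n = 2) and of 5.50, 4.20, 4.47 and 3.62 in WT 1 to 4 (4.45 ± 0.787, SD, n = 4). These ratios are not on an equal footing. The merged regions (median 1260 bp) were wider than list peaks (medians 294 to 557 bp), and neither may touch a 1 kb window. Unlike the regions, peaks of every list were denser at 1 to 2 kb than at 2 to 5 kb, with 11.7 and 6.01 per Mb in WT 1. The 1 kb limit itself fell within a continuous run of regions. The 3 regions just inside it lay in Shisa6, Pcdh1 and Lrp8, at 1005, 1010 and 1012 bp, with mean folds of 3.09 ± 0.187, 2.63 ± 0.230 and 2.59 ± 0.191. The 3 just outside lay at Ltb4r2, Esyt3 and Osbpl7, at 997, 996 and 993 bp, with 2.85 ± 0.155, 3.33 ± 0.237 and 2.78 ± 0.188 (SD, n = 4 each).

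Few of these regions lay on the sex chromosomes. Neither all merged regions nor whole lists were counted by chromosome, so whether this is particular to these regions is unknown. The 19 autosomes carried between 0.646 and 1.46 regions per Mb of eligible gene body, with the lowest density on chromosome 12 and the highest on chromosome 11. Chromosome X carried 1 region in 43.8 Mb (0.0229 per Mb). It lay in Bcor, a corepressor of BCL6 (chrX:12087189-12087746), with a fold of 2.93 ± 0.0890 (SD, n = 4). Chromosome Y carried 0 in 1.96 Mb, which allows up to 1.53 per Mb. Bcor was named after its value was seen.

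Developmental regulators were frequent among the hosts. Of 127 developmental transcription factor genes with gene body outside the windows, 30 (23.6%) hosted a region, against the 4.78% of all genes, and they held 39 regions or 2.55 per Mb against 1.00 per Mb over all genes. Their median length was 32.1 kb against 21.4 kb over all genes, and the part of gene length in the share of hosts was not tested. Zfhx3, a zinc finger homeobox factor of neuronal and muscle differentiation, had folds of 3.66, 3.24, 3.40 and 3.42 in WT 1 to 4 at its strongest region (chr8:108703733-108705189). Gata4, a factor of heart and gonad development, had 3.17, 3.51, 2.99 and 3.82 at chr14:63255443-63256454. Satb1, a chromatin organiser of T cell development, had 3.95, 2.92, 3.13 and 4.08 at chr17:51812407-51813960. In 10 of the 30 hosts a region held a coding start, among them Esrrb, Runx3, Foxp1, Rarb and Pax2. This was a smaller part than among all hosts whose 5′ end could be placed, where it was 378 of 738. The 30 include a host without an entry in the start table, Gata4, where a coding start could not be found.

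Developmental signalling genes hosted regions in 11 of 92 cases (11.96%), at 1.67 per Mb. Fgf12, an intracellular fibroblast growth factor homologue, had folds of 2.79, 4.01, 3.15 and 3.82 in WT 1 to 4 over its own start. Wnt3, a ligand needed for gastrulation, had 2.88, 2.86, 2.94 and 2.88, with a mean of 2.89 ± 0.0318 (SD, n = 4). Smad7, an inhibitor of TGF-beta signalling, had a mean of 2.76 ± 0.113 (SD, n = 4). Of these, Fgf12 varied between libraries and Wnt3 hardly did.

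Axon guidance and ion channel genes had shares of hosts above the 4.78% of all genes, at densities below the 1.00 per Mb over all genes. Axon guidance and synaptic adhesion genes hosted a region in 16 of 104 cases (15.4%), at 0.514 per Mb, with a median length of 149 kb. Tenm3, a teneurin that guides synaptic partner choice, had a mean fold of 3.37 ± 0.157, Unc5a, a netrin receptor, 3.57 ± 0.640, and Sema5b, a semaphorin, 3.35 ± 0.225 (SD, n = 4 each). Ion channel genes hosted a region in 26 of 201 cases (12.9%), at 0.936 per Mb. After Cacna1d, the strongest were Cacna1c, the main L-type calcium channel of the heart, with 3.58 ± 0.461, and Kcnk1, a 2-pore potassium channel, with 3.49 ± 0.245 (SD, n = 4 each), and the regions of all 3 held a start of the gene.

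Chromatin regulators hosted a region in 11 of 129 cases (8.53%), at 1.39 per Mb. In 8 of the 11 a region held a coding start, against 378 of all 738 hosts whose 5′ end could be placed. The 11 include Chd2, which has no entry in the start table. Pcgf5, a subunit of a variant Polycomb complex, had folds of 4.26, 3.79, 4.02 and 5.62 in WT 1 to 4 at a 306 bp region with no listed start. Hdac7 had 3.82, 3.48, 3.68 and 3.17, and Chd9, a chromatin remodeller, 3.52, 4.14, 3.37 and 2.92. Dnmt3a, a de novo DNA methyltransferase, was also a host, with 2.97 ± 0.251 (SD, n = 4) over an internal start. Imprinted genes hosted a region in 7 of 62 cases (11.3%), at 1.58 per Mb. These were Jade1, Mest, Snrpn, Gnas, Zim1, Zdbf2 and Peg10. Mest, which is expressed from the paternal copy, had 2.83, 2.83, 2.89 and 2.38 over a start of its own, and Zdbf2 was uneven, with 4.80, 2.51, 2.34 and 4.17.

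**Figure D5:**
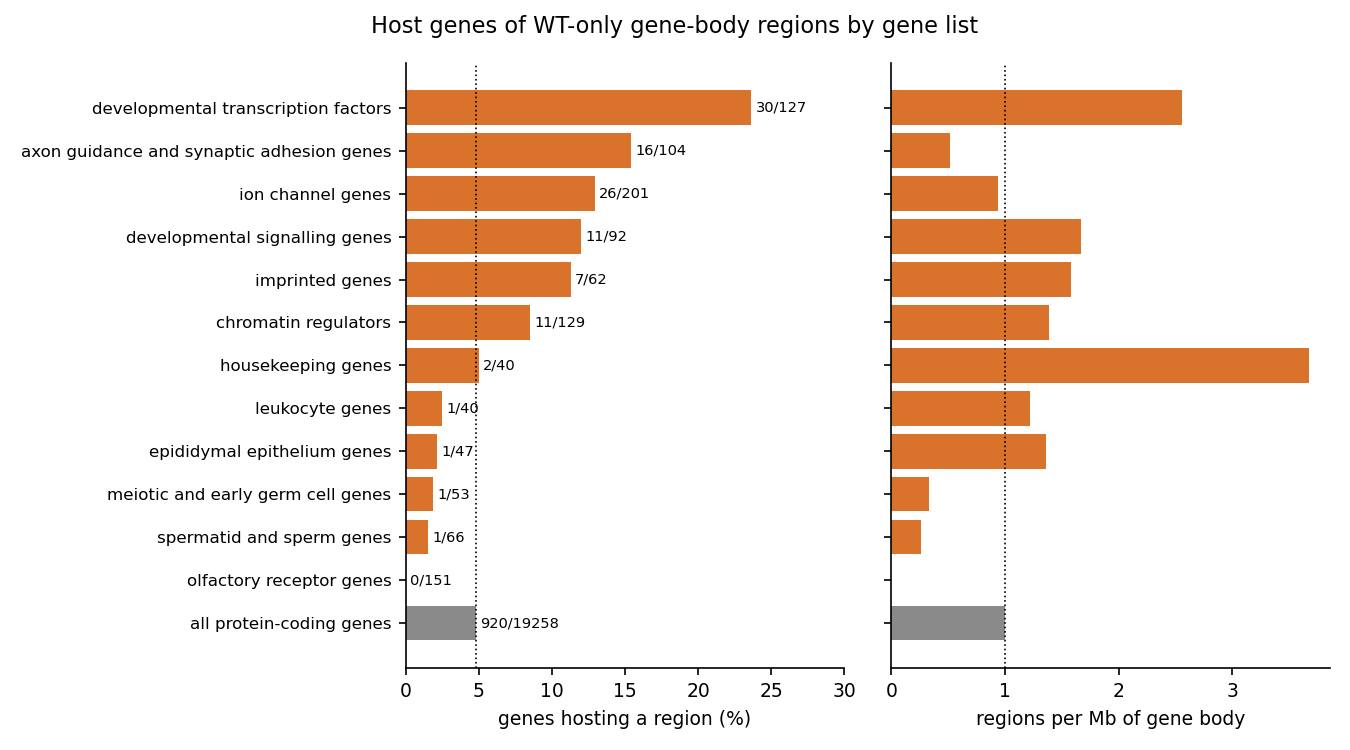
Left, percent of the genes in each list that host a WT-only gene-body region, with the counts beside the bars; right, regions per Mb of gene body outside the 1 kb windows. The grey bar and dotted line show all protein-coding genes (4.78% and 1.00 per Mb); developmental transcription factors reach 23.6% and 2.55 per Mb, whereas axon guidance genes reach 15.4% but 0.514 per Mb, and the density of housekeeping genes rests on 2 regions.

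Both lists of germ cell genes had 1 host, against a share of 4.78% over all genes. Of 66 spermatid and sperm genes 1 hosted a region (1.52%), Spag6, a protein of the flagellar axoneme, with folds of 3.04, 2.61, 2.64 and 2.57. Of 53 meiotic and early germ cell genes 1 did (1.89%), Tdrd7, a tudor protein of germ granules, with 3.54, 3.81, 3.13 and 3.59. The lists had densities of 0.260 and 0.333 per Mb. No olfactory receptor gene among 151 was a host, in 0.875 Mb of gene body. Housekeeping genes had 2 hosts of 40, Ywhaz (2.71 ± 0.247) and Actb (2.82 ± 0.312; SD, n = 4 each). Genes typical of other cells of the epididymis had 1 host each, Cldn10 among 47 epididymal epithelium genes (3.07 ± 0.234) and H2-Ab1 among 40 leukocyte genes (3.14 ± 0.353; SD, n = 4 each), and the part of chromatin from other cells in these lists was not tested. Counts this small neither order these lists nor set them apart from all genes.

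Some of the regions overlapped noncoding RNA genes. Of the 1001, 6 overlapped a miRNA gene (0.599%), compared with 25 of the 14228 merged regions in gene bodies (0.176%), most of which are narrower. Per Mb of region these were 4.56 in the WT-only regions and 3.44 in all merged regions. The 6 were those in Mllt10 (Mir7655), Cxxc4 (Mir1895), Arpp21 (Mir128-2), Tlcd1 (Mir7653), Epc1 (Mir1893) and 2700081O15Rik (Mir6991). Arpp21, host of a brain-enriched miRNA, had a mean fold of 3.11 ± 0.0476, and Mllt10 3.70 ± 0.670 (SD, n = 4 each). An annotated lncRNA gene was overlapped by 143 of the WT-only regions (14.3%) and by 1231 of all merged regions (8.65%), or 109 and 169 per Mb of region, so the direction turned with the measure. A snoRNA gene was overlapped by 1 of the WT-only regions and 4 of all merged regions, and a tRNA gene by 0 and 1.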

How the data were processed

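MNase-seq of mouse sperm gave 6 deposited lists of broad peaks, 2 from K49A and 4 from WT libraries, grouped by the sample titles. The submitters' processing notes name FastQC, BWA, SAMtools, Picard and the peak caller MACS2, with mm10 as build. They are listed without versions or settings, and neither an input control nor how the molecular identifiers were used was given in the sources used here. In the deposited files each peak has the authors' fold over local background (a ratio), −log10 p, −log10 q and a whole-number score, which was not used. Lists end at a −log10 q of 1.00 to 1.04. The number of reads is unknown, and the deposited values give no depth.

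Peaks of all lists were merged where they overlapped or touched, and a library called a region if a peak overlapped it by at least 1 bp. Genes were the 21887 protein-coding genes of a RefSeq table (GRCm38.p6, which mm10 names). The best peak of a region was that with the highest −log10 q. Starts came from a RefSeq table of 300-base windows that has an entry for 17492 of these genes (79.9%), and shares of regions with a start were taken over regions whose host genes have an entry. No genome of the build was used, so base composition was measured in these windows and not in the regions. Libraries were the unit of replication, with two-sided exact permutation tests over libraries, and each p reflects only how these libraries vary, which may be technical. Intervals are exact (Clopper-Pearson, 95%), and intervals and limits cover counting error only. A count of 0 was given a limit of 3 counts. No test was made per region or per gene list.

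Named genes are hosts of the 10 strongest regions (mean percentile of −log10 q), the 10 widest, the 10 genes with most regions, up to 3 per gene list by strength, and the 3 regions either side of the 1 kb limit, with exceptions marked in the text. Further list members were named after their values were seen. The regions, gene lists and rules were chosen with earlier results of these data known. The result of a further gene list is not reported here. The scripts were tested on simulated lists, where 100 of 100 planted regions were found. Analyses used Python 3.11.15, NumPy 2.4.6, pandas 2.3.3, SciPy 1.17.1 and Matplotlib 3.10.9. Alternatives were other thresholds, overlaps, window sizes and list lengths, and leaving out each library.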

Additional observations from a re-analysis of the deposited data

Results flagged for a closer look

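In 83 sets of 4 WT values, 10 had a library that stood far from the other 3 (Dixon's criterion), where chance gives about 1 in 20, and sets from the same libraries are not independent. WT 1 was the library that stood apart in 7 of the 10. Its list covered 5.76 Mb, against 13.5, 14.5 and 13.8 Mb in WT 2 to 4, and its median fold in the WT-only gene-body regions was 3.16, against 2.97, 3.00 and 2.97. WT 1 also had the highest fold at the strongest Rap1gap2 region (4.34), at Phip (5.23), at Rgs20 (2.83), at Arhgef4 (4.19) and at Spag6 (3.04).

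WT 4 was the low library at one Shank1 region (2.57, with 3.31, 3.41 and 3.28 in WT 1 to 3) and at Mest (2.38, with 2.83, 2.83 and 2.89). WT 2 was the high library at a second Rap1gap2 region (2.85, with 2.57, 2.52 and 2.57 in WT 1, 3 and 4). The part of list length in these values was not tested.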

How the results depend on the processing

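The number of WT-only gene-body regions (1001) and of host genes (920) depended on the definition of a call. With a −log10 p of at least 5 they were 269 and 260, with 0.5 of a region covered 232 and 224, and with 700 peaks per list 4 and 4. Leaving out 1 library gave 1019 to 1702 regions and 933 to 1514 hosts, both highest without WT 1. The share of regions with a coding start (48.4%) was 63.1% at a −log10 p of at least 5, 58.7% with 0.5 of a region covered, 38.7% with all regions counted, and 39.9 to 47.7% with 1 WT library left out. The density ratio (5.56) was 8.36 in genes of at least 100 kb and 3.82 at a −log10 p limit of 5. The difference in fold between gene bodies and regions between genes changed sign at this limit, to -0.00342 ± 0.101 (SD, n = 4; exact permutation p = 1). The cause of these changes was not tested. The other differences in fold, width and share kept their direction under all alternatives run. The alternatives on the share of peaks with a start, the share of regions with a coding start, and the fold of regions with and without a start were added after the data had been seen. No test could pass 0.05.

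Replicate numbers 1 and 2 occur in both groups, and no label says that they mark a shared animal or day. With the number as a block, the share of a list inside gene bodies differed by 5.36 percentage points, K49A minus WT (exact sign-flip permutation p = 0.5, the smallest that 2 pairs allow), and the share of gene-body peaks with a start by -14.1 (exact permutation p = 0.5). The pairing of K49A 2 is uncertain: set against WT 4, an alternative also added afterwards, the differences were 3.04 and -13.0 percentage points (exact permutation p = 0.5 each).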

Other observations

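The WT-only gene-body regions were mostly isolated. Neighbouring regions on a chromosome lay a median of 1125 kb apart, and 13 neighbours lay within 10 kb of each other. Within a region most libraries had a single peak, and more than 1 peak was listed in 16, 14, 35 and 42 of the 1001 regions in WT 1 to 4. Pseudogenes were overlapped by 19 regions. These are values only, and no comparison was made.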
